A study of Mus musculus with 3 samples.

Results

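The genes of the cytoplasmic ribosomal proteins were examined for CTCF occupancy in LSK cells. The set held every protein-coding gene of GENCODE M21 on Chromosomes 1 to 19 whose symbol was Rpl or Rps followed by digits and at most 1 letter, or was Rplp0, Rplp1, Rplp2 or Rpsa. This gave 76 of 20807 protein-coding genes, 46 for the large and 30 for the small ribosomal subunit, spread over 18 chromosomes. Genes on the sex chromosomes were not counted, and the symbol rule also left out 4 genes, among them Fau, Rack1 and Rps3a1. LSK cells are the bone marrow fraction without lineage markers that carries Sca1 and cKit, which includes the hematopoietic stem cells, and here they were sorted from adult male C57BL6 mice, for which the labels name no transgene or treatment. CTCF-bound DNA was recovered with an antiserum and sequenced as 1 library, and the authors deposited its list of called peaks. An LSK input and an input of megakaryocyte-erythrocyte progenitors (MEP) belong to the same series and were not analyzed here. With 1 library there was no replicate and no group to compare, so all counts below are descriptions without a test, and their 95% Wilson intervals cover counting error only.

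CTCF is a zinc finger protein that binds a long, directional DNA motif, marks boundaries between chromatin domains and, at many sites, stops cohesin as it extrudes chromatin loops. Ribosomal protein genes are among the most highly transcribed genes of growing cells, and many of them carry genes for small nucleolar RNAs (snoRNAs) in their introns. Blood formation is sensitive to them: loss of 1 copy of RPS19, RPL5, RPL11 and several others causes Diamond-Blackfan anemia, a failure of red cell production in humans.

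The peak list held 18945 peaks, 18697 of them on Chromosomes 1 to 19, with a median width of 716 bp. Each peak has a fold enrichment of reads over background on a linear scale, with a median of 10.12 and a range from 2.58 to 42.42, and a −log10 p-value with a median of 12.722, both as given by the authors' peak caller. The list carries no read counts, so depth behind a single peak is unknown, and it carries no expression values, so the sort could not be checked against markers of LSK cells. Distances below run from the transcription start site (TSS), which is the 5′ end of the gene record, to the nearest edge of the nearest peak, and are 0 where the peak covers the TSS. Upstream and downstream follow the strand of the gene.

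CTCF peaks lay close to the ribosomal protein genes. Of the 76 genes, 53 (69.7%, interval 58.7 to 78.9) had their nearest peak no farther than 10 kb from the TSS, against 30.4% of all protein-coding genes, which include them. A peak lay within 1 kb of 19 genes (25%, 16.6 to 35.8), against 8.92% of all protein-coding genes, and covered the TSS of 11 genes (14.5%, 8.28 to 24.1), against 4.43%. The median distance was 5618 bp for the ribosomal protein genes and 22788 bp for all protein-coding genes. Within 50 kb, 71 of the 76 genes had a peak (93.4%), against 69.7%.

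**Figure D1:**
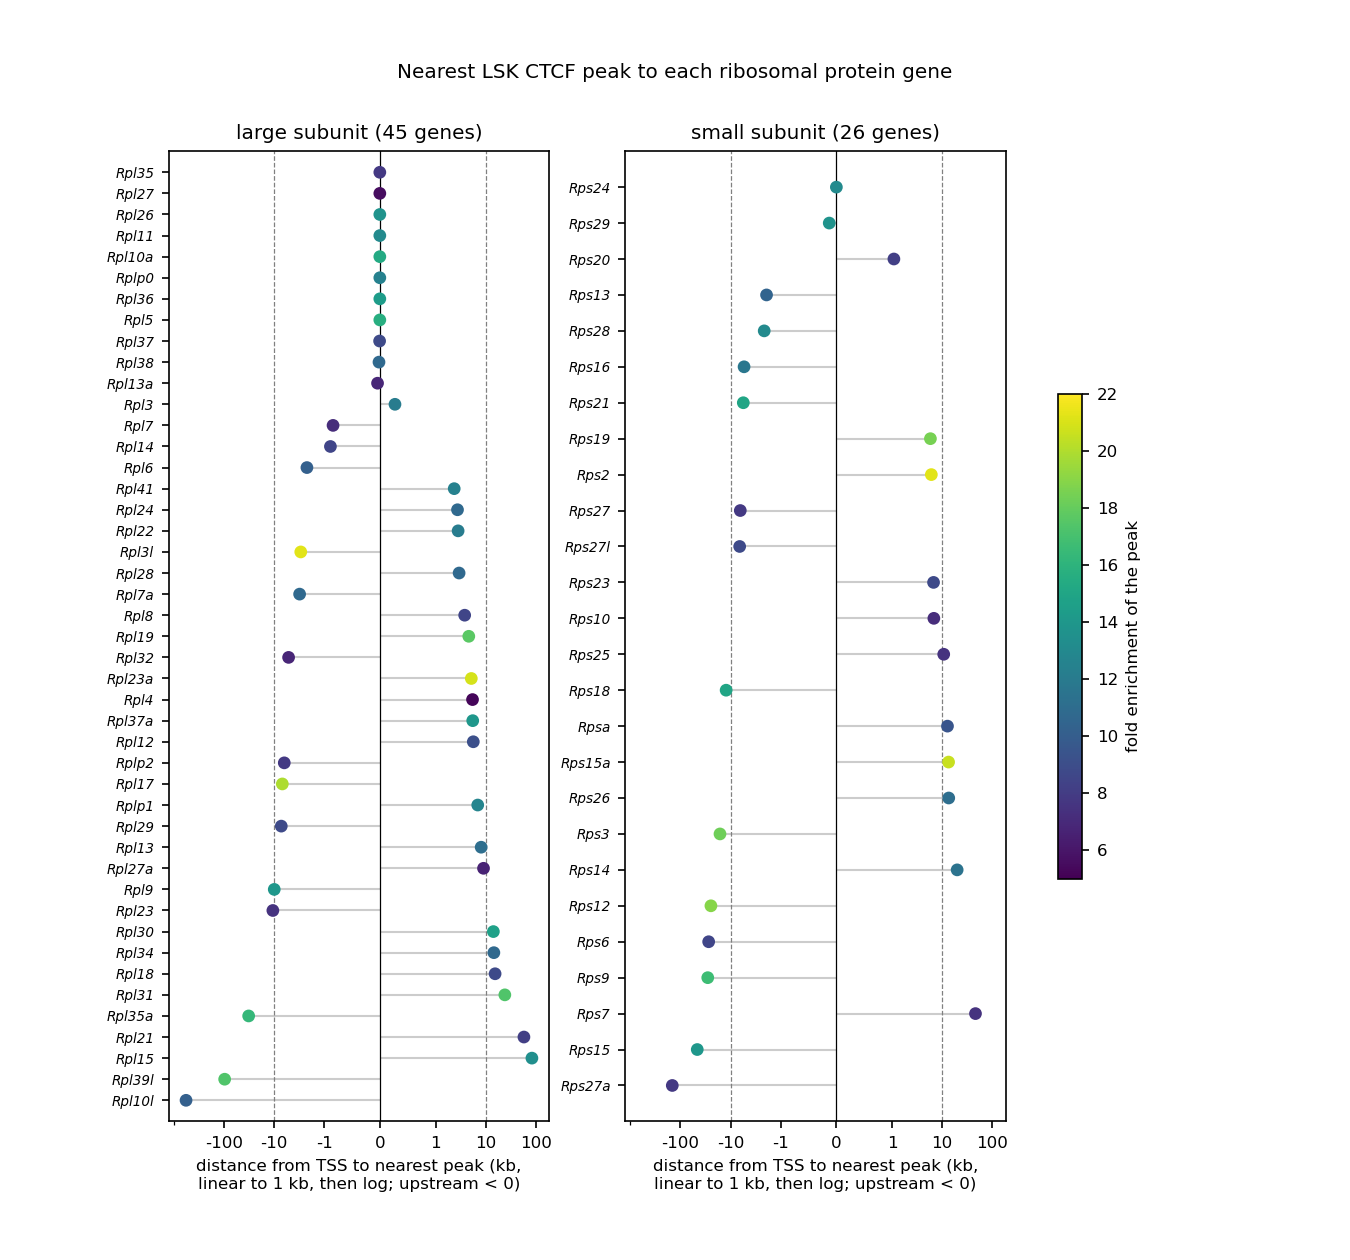
Distance in kb from the TSS of each ribosomal protein gene to its nearest LSK CTCF peak (x axis, linear to 1 kb and logarithmic beyond, upstream negative), with 45 large-subunit genes at left and 26 small-subunit genes at right, ordered by distance. Point color is the fold enrichment of the peak and dashed lines mark 10 kb, with 35 large-subunit and 13 small-subunit genes of those shown within them.

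Peaks covered the TSSs of Rpl5, Rpl10a, Rpl11, Rpl26, Rpl27, Rpl35, Rpl36 and Rplp0 in the large subunit and of Rps24 among others in the small subunit. The promoters of Rpl5, whose protein binds MDM2 together with that of Rpl11 when ribosome assembly fails, and of Rplp0, which anchors the stalk that recruits elongation factors, each held the core CTCF motif, and so did that of Rpl37, whose peak ended 4 bp before the TSS. The core CTCF motif used here is 12 bases long and was searched on both strands. The 200 bases before these TSSs are given because they place the motif relative to the gene (mm10, gene strand, 5′ to 3′, the motif in capitals).
Rpl5 (chr5:107900302-107900501, plus strand): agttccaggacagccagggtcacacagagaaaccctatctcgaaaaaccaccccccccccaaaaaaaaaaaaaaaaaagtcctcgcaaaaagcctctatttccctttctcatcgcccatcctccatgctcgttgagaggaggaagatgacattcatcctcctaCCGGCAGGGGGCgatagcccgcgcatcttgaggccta
Rplp0 (chr5:115559267-115559466, plus strand): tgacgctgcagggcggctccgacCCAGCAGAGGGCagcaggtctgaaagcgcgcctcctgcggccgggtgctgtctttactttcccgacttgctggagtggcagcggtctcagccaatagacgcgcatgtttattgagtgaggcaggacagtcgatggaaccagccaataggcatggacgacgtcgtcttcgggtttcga
Rpl37 (chr15:5116445-5116644, plus strand): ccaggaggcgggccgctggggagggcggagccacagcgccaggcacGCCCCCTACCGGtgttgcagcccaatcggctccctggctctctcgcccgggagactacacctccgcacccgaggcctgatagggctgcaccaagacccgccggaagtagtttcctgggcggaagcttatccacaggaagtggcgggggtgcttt
The motif was centered 32 bp before the TSS of Rpl5 and 172 bp before that of Rplp0, on the strand of the gene in both. In Rpl37 it lay 149 bp before the TSS on the opposite strand. These 3 and Rps24, with the motif 8 bp inside the gene, were the 4 of 76 members with the core motif between 250 bp before and 50 bp after the TSS, a window that held it in 1.64% of all protein-coding genes.

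Around other starts the motif matched with 1 mismatch. Rpl26, Rpl36, Rpl38 and Rps29 had such matches at 113, 83, 434 and 563 bp before the TSS. For each gene the match closest to the midpoint of its peak was taken. They are shown with 25 flanking bases on each side, read on the strand of the motif, with the 12 bases of the match in capitals (mm10).
Rpl26 (chr11:68901440-68901501, plus strand): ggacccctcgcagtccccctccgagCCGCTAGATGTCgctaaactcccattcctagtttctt
Rpl36 (chr17:56613303-56613364, plus strand): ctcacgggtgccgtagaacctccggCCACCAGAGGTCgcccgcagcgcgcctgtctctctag
Rpl38 (chr11:114668060-114668121, minus strand): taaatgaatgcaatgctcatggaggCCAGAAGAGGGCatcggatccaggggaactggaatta
Rps29 (chr12:69159719-69159780, minus strand): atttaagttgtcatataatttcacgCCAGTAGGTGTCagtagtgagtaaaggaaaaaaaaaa
Of the 11 peaks over a TSS, 3 held the core motif (Rpl5, Rplp0 and Rps24) and 7 held it with up to 1 mismatch. The other 4, those of Rpl10a, Rpl27 and Rpl35 among them, had no such match, which says only that these letters are not in the peak. Among all autosomal peaks, 35.7% held the core motif and 83.6% held it with up to 1 mismatch. The peaks over a TSS did not exceed either share, and the difference was not tested.

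Enrichment at the covered starts was moderate to high for this list. The fold enrichment was 15.66 at Rpl5 (−log10 p-value 19.762) and 15.34 at Rpl10a (23.951), which is part of the mobile L1 stalk of the large subunit. It was 14.36 at Rpl36 (20.005), 13.70 at Rpl26 (18.242) and 13.05 at Rpl11 (16.668), and 12.40 at Rplp0, where the −log10 p-value of 27.420 was the highest of the 11. Rps24 had 13.05 (17.577). The peaks at Rpl35 (7.83, −log10 p-value 7.969) and Rpl27 (5.55, 5.392) were weak, below the list's median fold enrichment of 10.12. The median over the 11 genes was 13.05.

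Some of these starts differ between annotations. The Rps24 record begins 67 bp from the start of Polr3a, which is transcribed the other way and encodes a subunit of RNA polymerase III. The peak covers both starts. The principal Rps24 transcript starts 3593 bp farther in, which puts the peak 3183 bp upstream. The Rpl35 start in RefSeq lies 493 bp away, with the peak 367 bp from it. The principal start of Rpl27 lies 77 bp outside its peak. With principal transcript starts, 9 of the 76 genes had a peak over the TSS.

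Another 8 genes had a peak within 1 kb that did not reach the TSS, and 7 of these peaks were upstream. Among all protein-coding genes, 549 such nearest peaks were upstream and 387 downstream. The 7 upstream peaks included those 4 bp from Rpl37 (fold enrichment 8.81), 15 bp from Rpl38 (10.77) and 41 bp from Rpl13a (6.85). Further ones lay 128 bp from Rps29 (13.70), 840 bp from Rpl7 (7.18) and 887 bp from Rpl14 (8.48). The peak at Rpl7 covers the start of another gene, Rdh10. Rpl38 is known for its part in the translation of Hox mRNAs, and Rpl13a carries 4 snoRNA genes. The exception was Rpl3, which lines the peptidyl transferase center of the ribosome, with a peak in its intron 272 bp downstream (12.07). That peak also covers the start of Syngr1, 534 bp from the Rpl3 record, and the principal Rpl3 transcript starts 8462 bp away.

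Counted by peak midpoints, the bin from 1 kb upstream to the TSS held 15 peaks at the ribosomal protein genes, or 19.7 per 100 genes, against 5.15 per 100 for all protein-coding genes. The bin of the first 1 kb downstream held 2, or 2.63 per 100, against 2.48. Among the bins farther out, that from 3 to 4 kb downstream held the most, with 7 peaks (9.21 per 100 genes against 1.44). These bins hold few peaks each, and those from 7 to 8 kb and 5 to 6 kb downstream held 6 and 5.

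**Figure D2:**
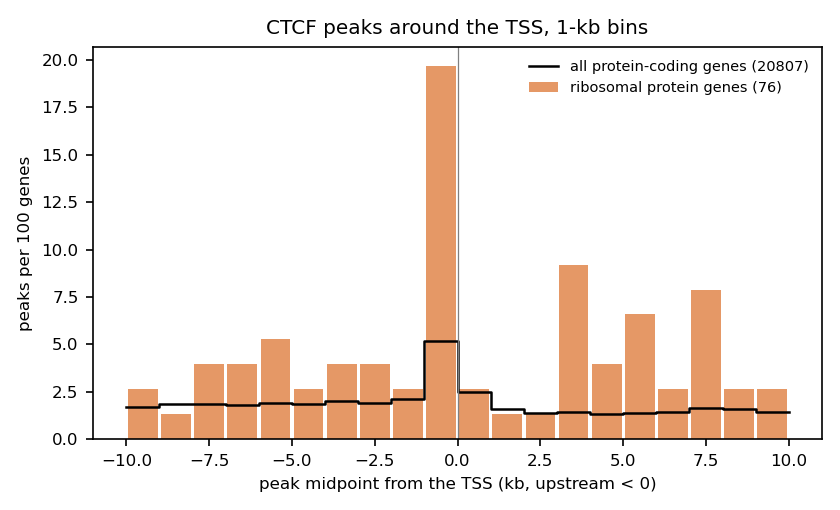
CTCF peaks per 100 genes (y axis) in 1-kb bins of the distance from the TSS to the peak midpoint in kb (x axis, upstream negative), as bars for the 76 ribosomal protein genes and as a line for all 20807 protein-coding genes. The tallest bar, 19.7 per 100 genes, is the bin just upstream of the TSS, where the line stands at 5.15.

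From 1 to 10 kb, 15 of the nearest peaks were upstream and 19 downstream, against 2522 and 1947 for all protein-coding genes. Of the 53 genes with a peak within 10 kb, 11 had it over the TSS, 22 upstream (41.5%, 29.3 to 54.9) and 20 downstream, and among all protein-coding genes 48.5% of the nearest peaks within 10 kb were upstream. Peaks within 10 kb to both sides were found at 5 of the 76 genes, against 2.97% of protein-coding genes. The nearest peaks of the 53 genes were 51 distinct peaks, since 2 peaks were each the nearest of a pair of neighbors, Rpl3l and Rps2 among these. By their midpoints 28 of the 51 were intergenic, 15 were in introns and 8 in exons, and 5 were inside the ribosomal protein gene itself. For 37 of the 53 genes the TSS was the protein-coding start closest to the peak, and for 16 another gene's start was closer. Peak places and closest starts were not counted for all protein-coding genes, so these counts have no background beside them.

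The highest fold enrichment within 10 kb, 21.21, belonged to the peak between Rpl3l and Rps2. It was 2925 bp upstream of Rpl3l, which replaces Rpl3 in heart and skeletal muscle, and 6074 bp downstream of the start of Rps2, a protein at the mRNA entry of the small subunit, and it covered the start of another gene, Ndufb10, which encodes a subunit of mitochondrial complex I. Rpl23a, which sits by the exit of the nascent chain tunnel, had a peak of 20.88 at 5176 bp downstream, which lies nearer to the start of Tlcd1. Rpl17 had 19.91 at 6826 bp upstream. Rps19, the gene most often mutated in Diamond-Blackfan anemia, had 18.53 at 5825 bp downstream, and Rpl19 had 17.62 at 4611 bp downstream. Peaks over the start came after these, with Rpl5 (15.66) and Rpl10a (15.34).

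Over the 51 peaks the median fold enrichment was 11.09, against 10.44 over the 5084 distinct nearest peaks within 10 kb of protein-coding genes. The fold enrichment was above the list's median of 10.12 in 32 of the 51. The 19 peaks within 1 kb had a median of 12.40 and the 32 from 1 to 10 kb had 10.77. The weakest of the 51, with 5.22, was 5472 bp downstream of Rpl4 and covered the start of another gene, Snapc5.

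Some genes had no peak near. The nearest peak was 145344 bp upstream of Rps27a, which encodes a fusion of ubiquitin with a ribosomal protein, with a fold enrichment of 7.83. It was 83760 bp downstream of Rpl15 (13.38) and 58046 bp downstream of Rpl21 (8.16). The farthest of all, at 568656 bp, was that of Rpl10l (10.12), which takes the place of an X-linked gene in male germ cells. Rpl39l, another paralog used in the testis, had its nearest peak at 96481 bp (17.29). At the limit itself, Rpl9 with 9889 bp was just inside and Rpl23 with 10541 bp just outside. Of the 4 paralogs whose symbols end in l, Rpl3l and Rps27l (6577 bp upstream, 8.81), which responds to p53, had a peak within 10 kb.

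Large-subunit genes were closer to peaks than small-subunit genes in this list, by margins that the counting intervals do not separate. A peak lay within 10 kb of 36 of 46 large-subunit genes (78.3%, 64.4 to 87.7) and of 17 of 30 small-subunit genes (56.7%, 39.2 to 72.6). Within 1 kb the counts were 15 (32.6%, 20.9 to 47.0) and 4 (13.3%, 5.31 to 29.7), and over the TSS 8 and 3. Rps24 and Rps29 were among the 4 small-subunit genes. The median distance was 4214 bp for the large and 6772 bp for the small subunit. At 50 kb the order turned, with 42 of 46 and 29 of 30.

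**Figure D3:**
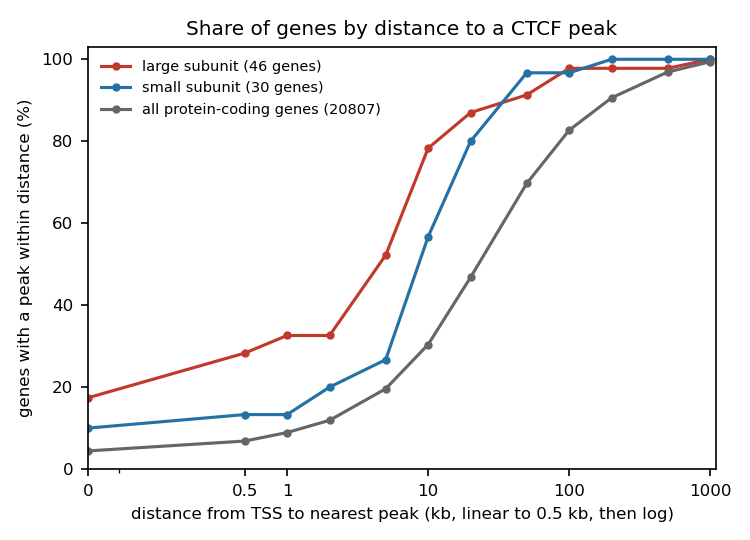
Share of genes in percent with a CTCF peak within a given distance of the TSS (y axis) by that distance in kb (x axis, linear to 0.5 kb and logarithmic beyond), for large-subunit, small-subunit and all protein-coding genes. At 10 kb the lines stand at 78.3%, 56.7% and 30.4%.

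Sides were mixed in both subunits, with 14 peaks upstream and 14 downstream in the large and 8 upstream and 6 downstream in the small subunit. The median fold enrichment within 10 kb was 10.93 for large-subunit and 11.75 for small-subunit genes. The core motif stood in 7 of 36 nearest peaks of large-subunit genes (19.4%, 9.75 to 35.0) and in 9 of 17 of small-subunit genes (52.9%, 31.0 to 73.8). With 1 mismatch allowed the counts were 23 (63.9%, 47.6 to 77.5) and 14 (82.4%, 59.0 to 93.8), against 82.3% of the distinct nearest peaks within 10 kb of protein-coding genes. Over all 51 peaks, 16 held the core motif (31.4%, 20.3 to 45.0), against 32.3% of the distinct nearest peaks within 10 kb of protein-coding genes and 35.7% of all peaks on Chromosomes 1 to 19. With 1 mismatch it was 37 of the 51 (72.5%, 59.1 to 82.9), against 83.6% of all peaks.

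The motif has a direction, and in the peaks beside the ribosomal protein genes it mostly read away from the TSS. Away means on the strand of the gene in a downstream peak and on the opposite strand in an upstream peak. Among nearest peaks within 10 kb that did not cover the TSS, 13 had the core motif on a single strand, and in 12 of them it read away (92.3%, 66.7 to 98.6), against 48.7% for protein-coding genes. The downstream peaks of Rpl3, Rps20, Rps19 and Rps10 followed this, and so did the upstream peaks of Rpl37, Rps21, Rps27, Rps27l, Rpl17 and Rpl9. The exception was Rps28, which lies head to head with Ndufa7 at 10 bp and has its upstream peak inside that gene. This comparison was made after the data were seen.

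The sites of Rps21, Rps27, Rps27l and Rpl9 lie upstream and those of Rps19 and Rps10 downstream, all reading away, and that of Rps28 lies upstream and reads towards the gene. They are printed on the strand of the motif, with its 12 bases in capitals (mm10), so that the alignment of the letters can be seen beside the strand of each site.
Rps21 (chr2:180251431-180251492, minus strand): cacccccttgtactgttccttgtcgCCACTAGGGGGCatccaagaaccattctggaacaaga
Rps27 (chr3:90220339-90220400, plus strand): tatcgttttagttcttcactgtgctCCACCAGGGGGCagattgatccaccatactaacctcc
Rps27l (chr9:66939033-66939094, minus strand): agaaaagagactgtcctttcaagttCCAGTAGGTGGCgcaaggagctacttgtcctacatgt
Rpl9 (chr5:65401822-65401883, plus strand): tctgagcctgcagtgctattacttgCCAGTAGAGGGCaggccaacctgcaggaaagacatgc
Rps19 (chr7:24890603-24890664, plus strand): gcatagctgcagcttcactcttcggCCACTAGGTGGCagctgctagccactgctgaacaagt
Rps10 (chr17:27629411-27629472, minus strand): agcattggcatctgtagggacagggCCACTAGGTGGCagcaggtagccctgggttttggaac
Rps28 (chr17:33827037-33827098, minus strand): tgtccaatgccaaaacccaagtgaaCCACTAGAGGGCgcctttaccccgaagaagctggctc
In these genes Rps21, Rps27l and Rps19 are on the plus strand and Rps27, Rpl9, Rps10 and Rps28 on the minus strand. None of these 7 sites is inside the ribosomal protein gene whose nearest peak holds it, and that of Rps10 is in an intron of a readthrough gene that continues past the end of Rps10. In Rps27 and Rpl9 the site is in an intron of the head-to-head neighbor, Rab13 and Lias.

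With 1 mismatch allowed, the motif read away in 19 of 24 such peaks (79.2%, 59.5 to 90.8), against 48.9%. With principal transcript starts it also read away in 12 of 13 nearest peaks, with a change of members: the peak of Rps24 then lay upstream and was counted, and the nearest peak of Rpl3 was another one, 5059 bp away, that was not among the 13. The motif in the Rpl3 intron reads towards that principal start. For peaks within 50 kb other than the nearest, the motif read away in 30 of 46 pairs of gene and peak (65.2%, 50.8 to 77.3), from 42 distinct peaks. This difference was smaller, and the interval includes the 55.5% of protein-coding genes.

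**Figure D4:**
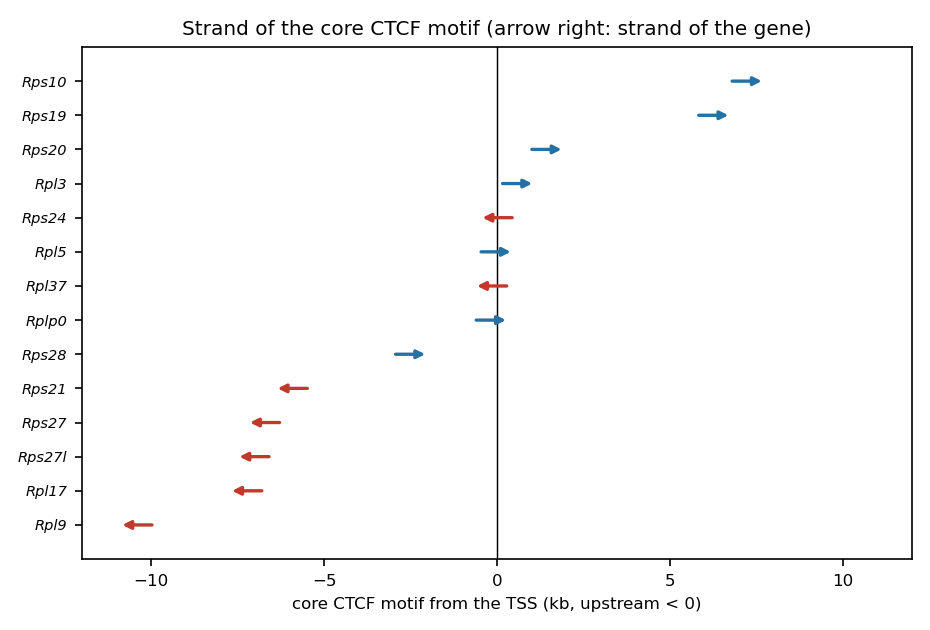
Position of the core CTCF motif relative to the TSS in kb (x axis, upstream negative) in nearest peaks within 10 kb, 1 arrow per motif and 1 row per gene. Arrows to the right (blue) are on the strand of the gene and arrows to the left (red) on the opposite strand. In the peaks beside the TSS, 10 of the 11 genes shown have arrows pointing away from it, with Rps28 as the exception.

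Lists of ribosomal proteins by role were set beside each other. Of 19 members linked to Diamond-Blackfan anemia, 7 had a peak over the TSS (among them Rpl5, Rpl11, Rpl26, Rpl27, Rpl35 and Rps24), against 4 of the other 57 (among them Rpl10a, Rpl36 and Rplp0). With principal starts Rps24 and Rpl27 no longer count among the 7. Within 10 kb the counts were 12 of 19 and 41 of 57, the other way. The rest of this list had peaks at varied distances, such as 128 bp at Rps29, 2131 bp at Rps28, 5825 bp at Rps19 and 83760 bp at Rpl15.

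Of 32 proteins found in all domains of life, 7 had a peak over the TSS, 24 within 10 kb and 32 within 50 kb, and among the other 44 members 4 and 29 had a peak over the TSS and within 10 kb. All 4 genes of the P stalk, the flexible arm of the large subunit, had a peak within 10 kb (interval 51 to 100), as had 49 of the other 72 members. They were Rplp0 at the TSS (12.40), Rpl12 at 5670 bp (9.14), Rplp2 at 6239 bp (7.83) and Rplp1 at 6955 bp (12.73). Of 14 proteins in the head of the small subunit, 8 had a peak within 10 kb, against 45 of the other 62 members, with 18.53 at Rps19, 13.70 at Rps29 and 13.05 at Rps28.

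The neighborhood of these genes also differed in part from the average. The median number of protein-coding starts within 50 kb was 3, against 2 for all protein-coding genes. It was 3 for small-subunit genes but 2 for large-subunit genes, the same as for all protein-coding genes. The median length between the flanking peaks of a TSS was 48504 bp, against 123383 bp. This length comes from the same peaks as the distances above and is not a separate result. A CpG-rich promoter, with a ratio of observed to expected CpG of at least 0.6, was found in 77.6% of the members and in 45.5% of all protein-coding genes. So the counts were repeated within such genes, a comparison chosen after the data were seen. With at least 3 neighboring starts, 30 of 40 members had a peak within 10 kb, against 39.4%, and 8 within 1 kb, against 10.1%. With a CpG-rich start, 38 of 59 members had a peak within 10 kb, against 34.9%, and 15 within 1 kb, against 12%. With both, 21 of 30 members had a peak within 10 kb (70.0%, 52.1 to 83.3), against 45.7%. In the same 30 members, 7 had one within 1 kb (23.3%, 11.8 to 40.9), against 14.3%, and 4 over the TSS (13.3%, 5.31 to 29.7), against 7.25%, and both of these intervals include the share given for protein-coding genes. Of the 17 members without a CpG-rich start, 15 had a peak within 10 kb, against 26.7%.

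Of the 15 members with a coding neighbor head to head, that is with a start on the opposite strand within 1 kb, 10 were within 10 kb of a peak and 3 within 1 kb, and of the other 61 members 43 and 16. The 15 include pairs that overlap at their starts, such as Rpl3 with Syngr1. Of 27 members that carry snoRNA genes, 21 had a peak within 10 kb, and of the 49 that do not, 32. Neither the head-to-head nor the snoRNA split was counted over all protein-coding genes. The snoRNA hosts with peaks within 1 kb included Rpl5, Rpl37, Rpl13a and Rpl3.

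Related genes were examined by the same measure. Of all protein-coding genes, 30.4% had a peak within 10 kb, 8.92% within 1 kb and 4.43% over the TSS. The 4 genes left out by the symbol rule all had a peak within 10 kb, over the TSS in Rps3a1 (18.27) and at 8919 bp in Fau (12.40) and 9615 bp in Rack1 (9.14). Of 78 genes for mitochondrial ribosomal proteins, which make up a separate ribosome, 35 had a peak within 10 kb (44.9%, 34.3 to 55.9) and 11 within 1 kb (14.1%). Of 30 genes for translation factors and ribosome assembly, 17 were within 10 kb of a peak (56.7%, 39.2 to 72.6), the share also found for small-subunit genes. Within 1 kb there were 3 (10%, 3.46 to 25.6). Eef2, the elongation factor of translocation, had its peak at 1022 bp (16.64). Of 259 pseudogenes of ribosomal proteins, which are mostly processed copies without a promoter, 38 had a peak within 10 kb (14.7%) and 1 had it over the start. The set of translation factors shares genes such as Fau and Rack1 with the genes left out by the rule.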

How the data were processed

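CTCF ChIP-seq peaks of 1 LSK library were analyzed. The authors mapped reads to mm10 and called peaks with MACS (per the paper's methods, with Bowtie and Samtools, and the submitters' processing notes name bcl2fastq and Bowtie 1.0.0). The sources used here give neither the MACS settings nor whether the input entered the calls. The deposited list gives, per peak, the authors' fold enrichment (a linear ratio) and the authors' −log10 p-value, which starts at 5.001. The list has no header, so both units were read from its layout and values, and its starts were taken as counted from 0. The false discovery rate column was not used.

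TSSs came from GENCODE M21 and sequences from the NCBI copy of GRCm38.p6 (mm10). The RefSeq promoter table, used to check starts, matched 56 of the 76 members, 42 of them within 100 bp of the TSS. Ties went to the peak with the higher fold enrichment. Python 3.11.15, numpy 2.4.6, pandas 2.3.3, scipy 1.17.1 and matplotlib 3.10.9 were used. The steps were tested on simulated data. Members and lists were chosen with earlier results of these data known. Genes named were every member with a peak over the TSS, the 10 with the highest fold enrichment within 10 kb, the 5 with the farthest peak, up to 4 per list by fold enrichment, and the paralogs. Others were named after their values were seen. Alternatives were a stricter peak set, other starts, other distances, other motif settings and other members. Some members are not reported here by name or shown in the plots by gene, and counts include them.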

Additional observations from a re-analysis of the deposited data

How the results depend on the processing

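Of 58 alternative values, 48 stayed within the counting interval of the reported value or within 1.5 times of a count, and 10 did not. Of the 10, 5 came from keeping only the 9473 peaks with the highest −log10 p-value. Then 33 members had a peak within 10 kb (22 large, 11 small) and 12 within 1 kb, with a median distance of 13462 bp, and 18% of all protein-coding genes had a peak within 10 kb. With a limit of 5 kb, 32 members counted, 8 of them small-subunit genes, and with 50 kb 29 small-subunit genes did. Upstream peaks made up 87.5% of those within 1 kb that did not cover the TSS. Among all protein-coding genes 549 of these were upstream and 387 downstream. With 1 mismatch allowed, 72.5% of the nearest peaks held the core motif, against 82.3% of the nearest peaks of protein-coding genes. Starts of other transcripts, midpoints, leaving out the paralogs and adding the genes left out by the rule moved no count by over 1.5 times. The settings for motif direction (1 mismatch, 50 kb, principal starts) were added after the data were seen and gave 79.2% to 92.3%. No paired analysis was possible because there was 1 library. The list has no counts or replicate, so a member without a listed peak may hold weaker occupancy than the caller's limit.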
